A study of Mus musculus with 8 samples.

Results

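Slit1, Slit2 and Slit3, which encode secreted guidance ligands, and Robo1 and Robo2, which encode their transmembrane receptors, were followed across the 7 deposited clusters of nuclei from embryonic mouse cortex, in wildtype and in Pantr2 knockout samples. The members were chosen by gene symbol, with earlier results of these data known. All 5 were found among the 14166 genes of the count tables. The series measured RNA of single nuclei from dorsal telencephalon, the tissue that forms the cerebral cortex, dissected at E15.5 from C57BL/6J embryos. There were 4 samples of the genotype Wildtype and 4 of the genotype Pantr2 Knockout (Pantr2-/- in the protocol), and Pantr2 is a long noncoding RNA gene. No other allele and no treatment is named for either group, and the labels do not say whether a sample is 1 embryo or a pool. P-values therefore measure the spread between these samples, which may be partly technical.

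Slit proteins bind the extracellular part of Robo receptors, and heparan sulfate chains on the cell surface stabilise the complex. Binding recruits GTPase regulators and adaptor proteins to the receptor tail, which remodels the actin cytoskeleton and most often turns an axon or a migrating cell away from the source of Slit. In the forebrain the system is known for guiding corticofugal and callosal axons and migrating neurons, and Robo signalling has also been described in cortical progenitors.

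The tables held 67319 nuclei, 33781 wildtype and 33538 knockout, with 20446698 to 34083796 unique molecular identifiers (UMIs, each standing for 1 captured molecule) per sample. Barcodes that occurred in more than 1 library numbered 510, and any pair of libraries shared 8 to 30. Summed over all samples, Slit1 had 21000 UMIs, Slit2 41591, Slit3 96635, Robo1 353045 and Robo2 355782. UMIs of the X-linked transcript Xist were 77 to 84 in wildtype samples 1 to 3, 128 and 85 in knockout samples 2 and 3, and 0 in wildtype sample 4 and knockout samples 1 and 4. The clusters are called by number. The marker levels that follow are means over the samples of both genotypes. Cux1, Cux2 and Pou3f1, markers of upper-layer neurons, were highest in cluster 1, while Rorb of the same list was highest in cluster 2 (570 CPM, against 120.1 in cluster 1). The deep-layer markers Ldb2, Fezf2 and Bcl11b were highest in cluster 2, and Tle4, Hs3st4 and Foxp2 in cluster 3. Crym of the deep-layer list was highest in cluster 7 (63.1 CPM). Pax6, Hes5, Vim and Slc1a3, markers of apical progenitors, peaked in cluster 4, and Eomes, Neurog2 and Unc5d, of intermediate progenitors and newborn neurons, in cluster 5. The intermediate progenitor marker Insm1 was instead highest in cluster 1 (77.4 CPM, against 69.7 in cluster 5). The newborn neuron marker Sema3c was highest in cluster 7 (286 CPM, against 152 in cluster 5). The hippocampus and cortical hem list (4 genes) summed highest in cluster 7, through Zbtb20 (4411 CPM there and 3234 in cluster 4). Its other genes, Prox1, Wnt8b and Lmx1a, were highest in cluster 4 (25.2, 13.1 and 5.17 CPM).

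On GRCm38 in the GENCODE M21 annotation, Slit1 (ENSMUSG00000025020) lies at chr19:41600257-41743665 on the minus strand. Slit2 (ENSMUSG00000031558) lies at chr5:47983138-48307733 and Slit3 (ENSMUSG00000056427) at chr11:35121224-35708507, both on the plus strand. The receptor genes share chromosome 16: Robo1 (ENSMUSG00000022883) at chr16:72308306-73046095 on the plus strand and Robo2 (ENSMUSG00000052516) at chr16:73891839-74411825 on the minus strand. None of the annotated genes that overlap a member had a row in the count tables.

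A microRNA encoded within ligand genes is shown here by sequence, and a search for letters that match it in the members follows. An intron of Slit2 and an intron of Slit3 each hold a gene for the microRNA miR-218, which is known to bind Robo transcripts. The mature sequences are from RefSeq on GRCm38.p6, with the seed, bases 2 to 8, in capitals. miR-218-5p is identical at both loci, chr5:48223966-48223986 in Slit2 and chr11:35616840-35616860 in Slit3, both on the plus strand. The passenger arms differ between the loci and have different seeds.
miR-218-5p: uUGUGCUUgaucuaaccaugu
miR-218-1-3p, Slit2 intron: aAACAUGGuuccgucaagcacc
miR-218-2-3p, Slit3 intron: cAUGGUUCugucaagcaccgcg

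The complement of the miR-218-5p seed, AAGCACA, was searched on the transcript strand of the 3′ untranslated regions in GENCODE M21. Robo1 held 1 match in 1733 bases, Robo2 held 2 in 3987 bases and Slit2 held 2 in 3492 bases, while Slit1 (1212 bases) and Slit3 (365 bases) held none. The same letters occur in 13.8% of the 21020 genes with a 3′ untranslated region, whose median length is 961 bases. The receptor matches are shown with their flanks, the match in capitals. A match is a description of the letters only, and the microRNA itself was not measured.
Robo1: ttttttggttttaaAAGCACAa
Robo2, first match: ttttatttggtgatAAGCACAa
Robo2, second match: gtcacggcagacccAAGCACAg

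In wildtype nuclei each of the 5 genes had its highest level in a different cluster. Levels are in CPM, from the UMIs of a gene summed over all nuclei of a sample in a cluster. They were scaled by the total of the tested genes and a TMM factor fitted per cluster, and are given as mean ± SD over 4 samples. Marker levels, marker sums and cell cycle levels were scaled by the total of all genes, without a TMM factor. Levels of the members are compared between clusters of 1 gene only and without a test, since the clusters were made from the same counts. Neighbouring levels are called separate where the ranges of the 4 samples do not overlap.

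**Figure D1:**
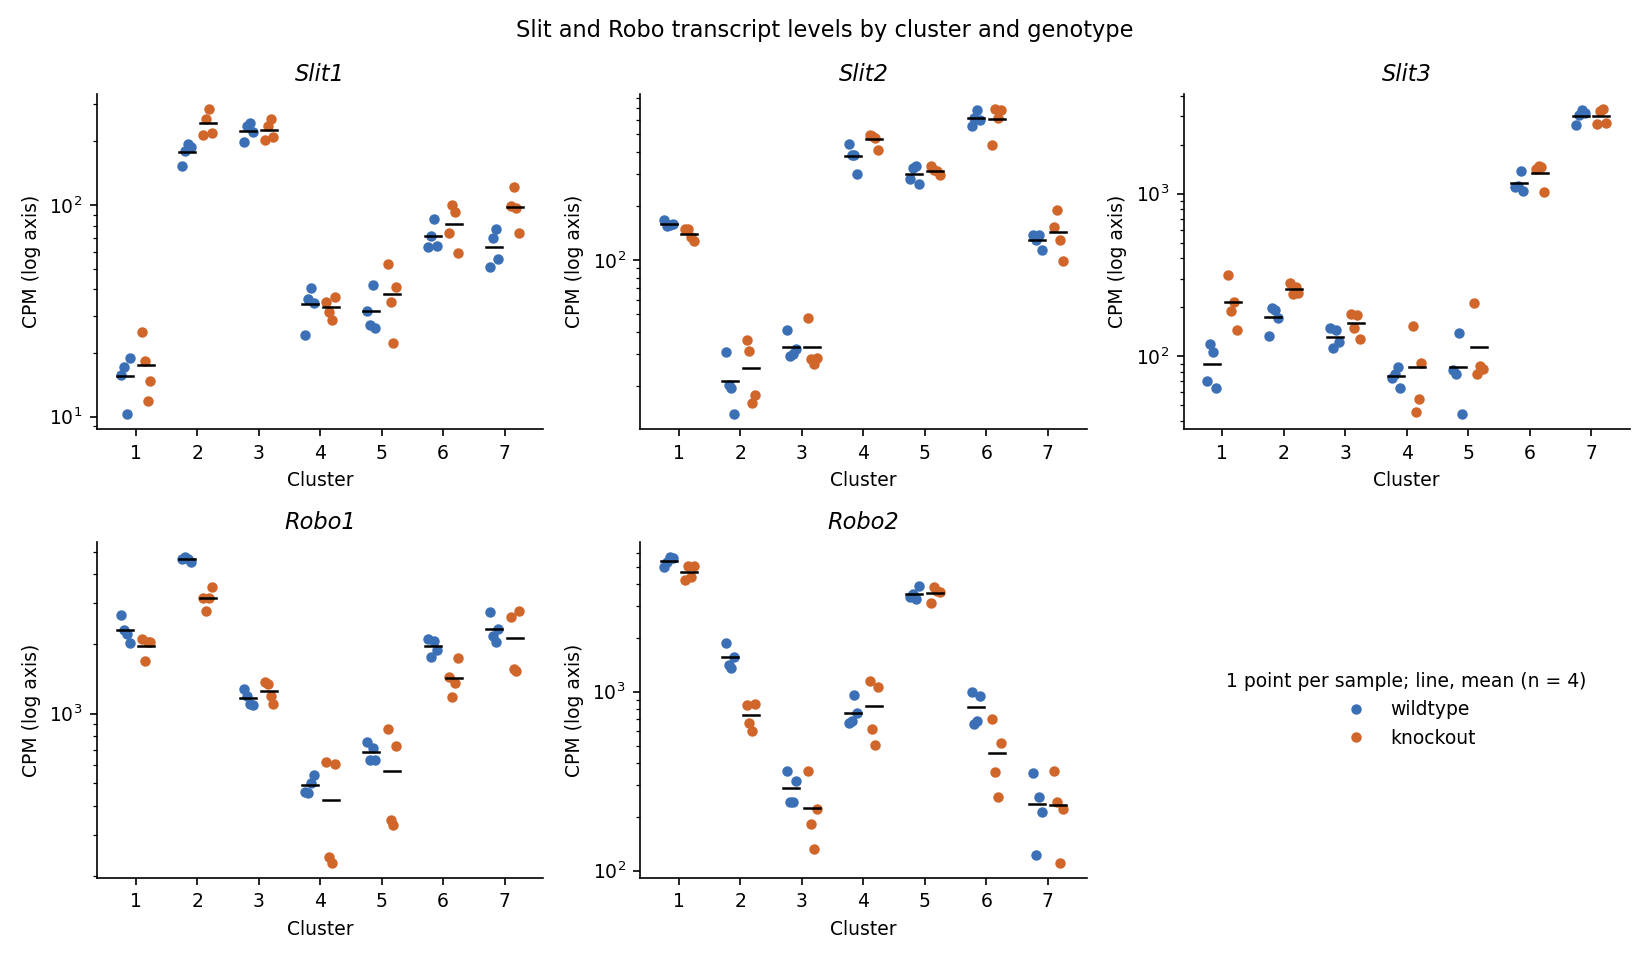
Transcript level of each gene (CPM, log axis) by deposited cluster, with 1 point per sample and a line at the mean of 4 samples, wildtype in blue and knockout in orange. In wildtype, Slit1 peaked in cluster 3 (225 CPM), Slit2 in cluster 6 (612), Slit3 in cluster 7 (3016), Robo1 in cluster 2 (4635) and Robo2 in cluster 1 (5377).

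Among the ligands, Slit1 was a gene of clusters 3 and 2 in wildtype, with 225 ± 20.3 and 179 ± 18.4 CPM. All other clusters lay lower. Clusters 6 (63.2 to 85.7 over the samples) and 7 (51.1 to 76.9) overlapped each other, as did clusters 4 (34.0 ± 6.89) and 5 (31.7 ± 7.06), and cluster 1 was lowest at 15.6 ± 3.75. The steps from cluster 3 to 2, from 2 to 6, from 7 to 4 and from 5 to 1 were separate. Together clusters 3 and 2 held most Slit1 molecules of a wildtype sample, 44.9% ± 4.35 and 31.2% ± 4.34.

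Slit2 was nearly the opposite of Slit1. It was highest in cluster 6 with 612 ± 52.0 CPM, followed by cluster 4, where the apical progenitor markers peaked, with 378 ± 56.9, and cluster 5 with 300.1 ± 32.8. Clusters 4 and 5 overlapped. Cluster 1 (159.6 ± 4.98) and cluster 7 (130.2 ± 11.3) were intermediate and separate from each other, and clusters 3 (33.0 ± 5.34) and 2 (21.2 ± 7.12) lowest. Over the 28 wildtype values, 7 clusters in 4 samples, the log2 levels of Slit1 and Slit2 had a Pearson correlation of -0.67, the most negative of the 10 pairs of members. These points share libraries and clusters, so no p is given.

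Slit3 had the steepest profile across clusters of the ligands. Its level in cluster 7 was 3016 ± 269 CPM and in cluster 6 1163 ± 151, both separate from every other cluster. The other 5 clusters formed a series without separate steps, from cluster 2 (173 ± 29.1) down to cluster 4 (75.3 ± 9.38). A Slit3 UMI was found in 88.9% ± 4.31 of cluster 7 nuclei thinned to 1400 UMIs each and in 4.16% ± 0.343 of cluster 4 nuclei, with 94.4% and 6.50% before thinning. The median depths of the clusters were 3128 and 2862 UMIs. Low shares such as that of cluster 4 were not separated from free RNA in the droplets.

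Robo1 was highest in cluster 2, at 4635 ± 87.2 CPM, separate from the next cluster. Clusters 7 (2313 ± 306), 1 (2297 ± 276) and 6 (1951 ± 168) overlapped in turn. Clusters 3 (1164 ± 86.3), 5 (682 ± 59.6) and 4 (489.7 ± 41.7) followed in separate steps. Robo1 thus had its lowest level in the cluster with the highest apical progenitor markers.

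Robo2 had another order. It was highest in cluster 1 with 5377 ± 313 CPM and next in cluster 5 with 3519 ± 265. Cluster 2 followed with 1555 ± 237, and these steps were separate. Clusters 6 (822 ± 173) and 4 (765 ± 133) overlapped, and clusters 3 (291 ± 58.9) and 7 (236 ± 96.1) were lowest and overlapped too. Robo1 and Robo2 were nearly unrelated across the 28 wildtype values, with a Pearson correlation of 0.03. Cluster 1 held 52.1% ± 11.2 of the Robo2 molecules of a wildtype sample, and cluster 2 held 40.5% ± 4.08 of the Robo1 molecules.

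The genes with the most similar wildtype patterns were sought among 8940 genes over the same 28 values, by the Pearson correlation of log2 CPM. For Slit1 these were Kif26a (0.97), Brinp1 (0.96) and Grik3 (0.95). Trps1 (0.96), A830082K12Rik (0.94) and Fstl5 (0.94) were closest to Slit2. Epha6 (0.97), Rit2 (0.97) and Htr2c (0.95) were closest to Slit3. The list for Robo1 was 8030451O07Rik (0.94), Elmod1 (0.93) and Runx1t1 (0.92). Robo2 had the least close matches, with Mn1 (0.93), Ptma (0.89) and Ddhd1 (0.88).

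Knockout and wildtype were then compared within each cluster. In cluster 2, where Ldb2, Fezf2 and Bcl11b peaked, both receptors were lower in the knockout and 2 ligands were higher. Robo2 fell by 1.07 ± 0.12 (SE) on the log2 scale and Robo1 fell by 0.55 ± 0.07, while Slit3 rose by 0.58 ± 0.11 and Slit1 rose by 0.45 ± 0.10. These 4 of the 5 genes passed an adjusted p of 0.05 in edgeR's quasi-likelihood test, where 9.11% of the 11538 genes tested in cluster 2 passed. By direction, 3.92% of genes passed as higher and 5.19% as lower. Since the members were chosen with earlier results known, their count is no test of the set. Slit2, which was low in this cluster, did not pass.

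Robo2 in cluster 2 was at 1884, 1402, 1364 and 1569 CPM in wildtype samples 1 to 4 and at 845, 669, 600.4 and 849 CPM in knockout samples 1 to 4. The lowest wildtype sample lay well above the highest knockout sample. The adjusted p was 0.000158 in edgeR's quasi-likelihood test.

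Robo1 in cluster 2 was at 4646, 4736, 4633 and 4524 CPM in wildtype and at 3152, 2779, 3159.7 and 3541 CPM in knockout. The wildtype samples were close together, all knockout samples lay below them, and the adjusted p by edgeR was 0.00041. Cluster 2 nevertheless had the highest Robo1 mean of all clusters in the knockout too, at 3158 ± 311 CPM, with its range overlapping that of cluster 7.

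Slit3 in cluster 2 was at 133, 197, 193 and 171 CPM in wildtype and at 282, 242, 265 and 245 CPM in knockout, and the groups did not overlap (edgeR adjusted p = 0.00368). Slit1 was at 153, 179.8, 195 and 188 CPM in wildtype and at 214, 255, 285 and 219 CPM in knockout (edgeR adjusted p = 0.0126). Every knockout sample again lay above every wildtype sample. The mean of Slit1 in the knockout was 243 ± 33.4 CPM in cluster 2 and 227 ± 23.7 in cluster 3, so the order of these clusters was the reverse of that in wildtype, with overlapping ranges. Slit2 was at 21.2 ± 7.12 CPM in wildtype and 25.3 ± 9.90 in knockout, with a log2 difference of 0.22 ± 0.27.

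Marker lists also differed between the genotypes in cluster 2, among them the deep-layer list, of which Bcl11b and Sox5 were highest in this cluster. The 4 upper-layer markers examined (Cux1, Cux2, Pou3f1 and Rorb) were all lower in the knockout, and their summed level was 756 to 1157 CPM in wildtype and 495 to 621 in knockout samples. Of 9 deep-layer markers 4 were higher (Sox5, Bcl11b, Hs3st4 and Tbr1) and none lower, with sums of 8160 to 9844 and 11238 to 13278 CPM. Interneuron markers (3 of 7 tested lower, sums of 50.1 to 64.0 and 27.7 to 48.9 CPM) and striatal-type markers (2 of 4 tested lower, 24.9 to 51.4 and 14.8 to 22.0 CPM) were much less abundant. No marker of these lists was at 0 in all samples. The part of the cell mixture in the Slit and Robo differences was not tested. Fewer nuclei of one kind within a cluster and fewer molecules per nucleus cannot be told apart in such sums.

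Because the deposited tables place clusters 1 and 2 in 1 larger group, the comparison was repeated on their sum, a choice made after seeing the data. Slit1 (0.40 ± 0.08, adjusted p = 0.00792), Slit3 (0.86 ± 0.14, adjusted p = 0.0029) and Robo1 (-0.43 ± 0.10, adjusted p = 0.018) passed edgeR's test there, as did 7.22% of 12678 genes. Robo2 was at -0.34 ± 0.10 with an adjusted p of 0.0671 by edgeR and was not called in the sum. Cluster 1 held 52.1% and cluster 2 15.1% of the Robo2 molecules of a wildtype sample, and 53.5% and 8.02% in knockout. The sum is therefore mostly cluster 1 for Robo2 and cannot check its call in cluster 2.

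**Figure D2:**
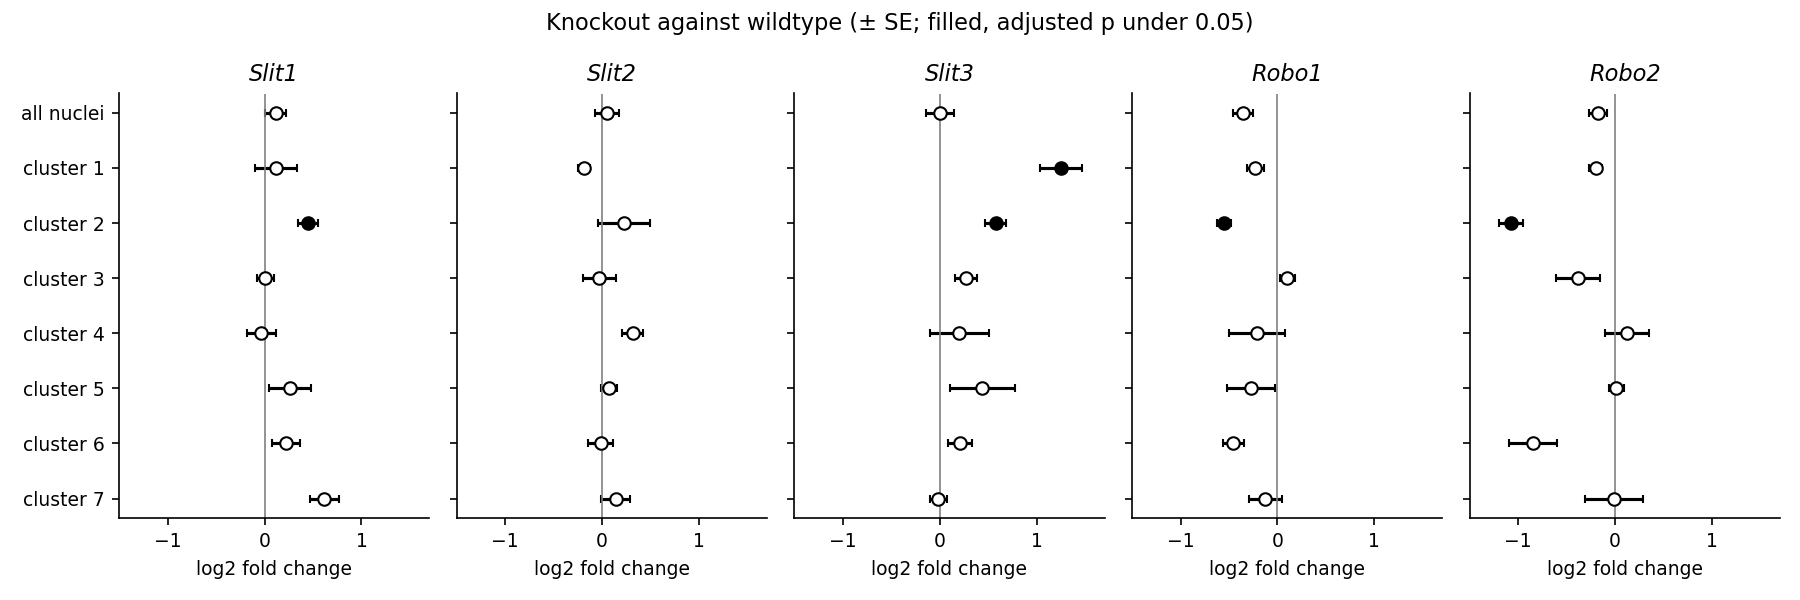
Log2 fold change of knockout against wildtype for each gene, over all nuclei and in each of the 7 clusters, with bars of 1 SE and filled points for an adjusted p under 0.05 (edgeR, 4 samples per group). Filled points are Slit3 in cluster 1 (1.25) and Slit1 (0.45), Slit3 (0.58), Robo1 (-0.55) and Robo2 (-1.07) in cluster 2.

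In cluster 1, where Cux1 and Cux2 peaked, Slit3 was the 1 member of 5 that passed, as did 4.84% of the 11664 genes tested (2.54% higher and 2.3% lower). It was at 70.7, 119, 106 and 63.5 CPM in wildtype and at 316, 191, 217 and 145 CPM in knockout samples 1 to 4. Slit3 rose by 1.25 ± 0.22 on the log2 scale (edgeR adjusted p = 0.00373), and the groups did not overlap, with knockout sample 1 the highest. The share of thinned nuclei with a Slit3 UMI was 5.79% ± 1.21 in wildtype and 12.5% ± 4.43 in knockout cluster 1, against 4.16% in cluster 4 of wildtype. The median depths of cluster 1 were 2351 and 2432 UMIs, and the shares before thinning were 8.07% and 15.96%.

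Robo2, which had its highest level in cluster 1, was at 4948, 5343, 5644 and 5571 CPM in wildtype and at 4239, 5021, 4399 and 5044 CPM in knockout. These ranges overlapped in part, with a log2 difference of -0.20 ± 0.07 and an adjusted p of 0.151 in edgeR. With the replicate number as a block, the adjusted p was 0.0339, the lowest of 13 alternatives that reached up to 0.41. Slit2 in cluster 1 was at 155 to 166 CPM in wildtype and 128 to 149 CPM in knockout samples, without overlap, but its adjusted p by edgeR was 0.13. Robo1 differed by -0.23 ± 0.09 and Slit1 by 0.12 ± 0.22, neither past the threshold.

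Marker lists also differed in cluster 1. Of 4 upper-layer markers 3 were lower in the knockout (sums of 1543 to 1895 CPM in wildtype and 886 to 1144 in knockout), and 4 of 9 deep-layer markers were higher (2500.1 to 2981 and 3742 to 5111 CPM). Interneuron markers were lower for 3 of 7 tested (50.2 to 90.6 and 27.5 to 45.1 CPM) and striatal-type markers for 2 of 3 tested (39.8 to 66.9 and 17.3 to 29.1 CPM). Their part in the Slit3 difference was not tested.

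Whether a genotype difference was particular to a cluster was tested with limma, on the log2 CPM of a gene in a cluster less its mean over the other 6 clusters of the same sample. Robo2 in cluster 2 differed from the other clusters by -0.82 ± 0.09 on the log2 scale (adjusted p = 4.18e-05), where 6.12% of 9775 genes passed. It was above the mean of the other clusters by 0.70 in wildtype and below it by -0.12 in knockout. Slit3 in cluster 1 differed by 1.02 ± 0.13 (adjusted p = 0.000258) and Slit2 in cluster 1 by -0.30 ± 0.07 (adjusted p = 0.0241), where 1.92% of genes passed. For Slit3, all 8 leave-one-out fits kept an adjusted p of at most 0.00298. For Slit2 the adjusted p was 0.095 without wildtype sample 4, 0.0687 without knockout sample 1 and 0.0958 without knockout sample 2. The differences of Robo1 (-0.31 ± 0.12, adjusted p = 0.178), Slit1 (0.25 ± 0.11, 0.244) and Slit3 (0.23 ± 0.12, 0.347) in cluster 2 were not shown to differ from those in the other clusters. With the replicate block, the adjusted p of Slit3 in cluster 2 was 0.0305. In clusters 3 to 7, none of the 5 genes differed from the other clusters by limma, where 1.46%, 1.48%, 0.481%, 0.0716% and 0.552% of genes passed. With the block, Slit1 (0.00608) and Slit3 (0.0396) passed in cluster 7, as adjusted p by limma. Single samples moved some of these limma tests past the threshold. Without knockout sample 1 the adjusted p was 0.0286 for Slit1 in cluster 2, 0.0332 for Robo2 in cluster 5 and 0.0156 for Robo2 in cluster 6. Without knockout sample 3 it was 0.0452 for Robo1 in cluster 2 and 0.0276 for Slit1 in cluster 3. Without knockout sample 4 it was 0.0091 for Robo1 in cluster 3, 0.0439 for Robo2 in cluster 6 and 0.0217 for Slit1 in cluster 7. The highest adjusted p of these tests over 11 alternatives lay between 0.355 (Slit1 in cluster 7) and 0.736 (Robo2 in cluster 5).

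Cluster 6, where Slit2 was highest, had 0 members past the threshold in edgeR, against 0.779% of its 10522 genes (0.352% higher and 0.428% lower). At an unadjusted p under 0.05 there were 2, both receptors. The share of all genes under this looser threshold was not counted, here or in the other comparisons. The percentages of genes that passed are for the adjusted p and are no background for such counts. Robo1 was at 2111, 1749, 2065 and 1879.7 CPM in wildtype and at 1433, 1177, 1355 and 1742 CPM in knockout, just without overlap. Its log2 difference was -0.45 ± 0.11 with an adjusted p of 0.112 by edgeR, 0.00908 with the replicate block, 0.0412 by DESeq2 and 0.00942 without knockout sample 4, and at most 0.337 over 13 alternatives. Robo2 was at 997, 658, 688 and 944 CPM in wildtype and at 703, 355, 257 and 514 CPM in knockout, with 1 knockout sample inside the wildtype range. Its difference was -0.85 ± 0.25 with an adjusted p of 0.213 by edgeR, 0.000595 with the block, 0.02 with a term for Xist and 0.0176 without knockout sample 1, and at most 0.493 over the alternatives. DESeq2 called Robo1 alone of the 5. With the block the genotype difference of Robo2 in cluster 6 also differed from that in the other clusters (limma adjusted p = 0.00218, against 0.144 without it). Cluster 6 made up 10.5% ± 1.54 of wildtype and 5.85% ± 1.61 of knockout nuclei, and its upper-layer sums, 817 to 1106 and 667 to 1158 CPM, overlapped. Deep-layer sums were 2302 to 2419 CPM in wildtype and 2710 to 3087 in knockout cluster 6, with 1 of 9 markers higher. Hippocampus and cortical hem sums were 606 to 679 CPM in wildtype and 322 to 483 in knockout, with 1 of 2 tested lower. The part of these lists was not tested.

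In cluster 7, the site of the highest Slit3 level, Slit3 itself was at 3016 ± 269 CPM in wildtype and 2985 ± 324 CPM in knockout, a log2 difference of -0.01 ± 0.09. None of the 5 genes passed in edgeR (1.03% of 10548 genes did, 0.578% higher and 0.455% lower), 1 had an unadjusted p under 0.05 and DESeq2 called 1, in both cases Slit1. Slit1 was at 51.1, 69.8, 76.9 and 55.7 CPM in wildtype and at 99.4, 122, 96.9 and 73.7 CPM in knockout, where sample 4 alone lay within the wildtype range. Its log2 difference was 0.62 ± 0.15, with an adjusted p of 0.0767 by edgeR, 0.029 by DESeq2, 0.00539 with the block, 0.0269 with the Xist term and 0.0161 without knockout sample 4, and at most 0.275 over the alternatives.

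In cluster 4 none of the 5 genes passed in edgeR or DESeq2, where 4.29% of 11935 genes passed in edgeR (1.17% higher and 3.12% lower), and 1 had an unadjusted p under 0.05. This was Slit2, at 441, 382, 384 and 303 CPM in wildtype and at 495, 491, 479 and 411 CPM in knockout. Only 1 knockout sample fell within the wildtype range. The log2 difference was 0.31 ± 0.11, with an adjusted p of 0.143 by edgeR, 0.0388 with the block and 0.0318 with the Xist term, and at most 0.268 over the alternatives. Apical progenitor markers were lower for 2 of 7 genes in cluster 4, with sums of 1924 to 2382 CPM in wildtype and 1527 to 1587 in knockout. Interneuron markers summed to 134.8 to 162 and 48.4 to 131 CPM, with none of 6 tested past the threshold. Hippocampus and cortical hem markers (1 of 4 lower, 3327 to 3794 and 2837 to 3095 CPM), oligodendrocyte precursor markers (2 of 2 tested lower, 9.80 to 11.8 and 1.65 to 3.07 CPM) and endothelial and pericyte markers (1 of 2 tested lower, 29.3 to 31.99 and 10.7 to 15.6 CPM) did not overlap either. The part of these lists was not tested.

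Robo1 in cluster 4 separated the knockout libraries from each other, and Robo2 and Slit3 did so too in the cell cycle ranges given below. Wildtype samples were at 461, 453, 502 and 543 CPM, and knockout samples 1 and 4 were above all of these at 621 and 608, while knockout samples 2 and 3 were below them at 241 and 228. The same libraries stood apart in cluster 5, at 863 and 724 against 349 and 330.0 CPM (wildtype 631 to 752), and in cluster 7, at 2605 and 2789 against 1555 and 1528 CPM (wildtype 2040.5 to 2739). In cluster 2 they did not, since all 4 knockout samples lay between 2779 and 3541 CPM. Knockout samples 2 and 3 are those with Xist UMIs. In wildtype, sample 4, which had none, was the highest of its group in cluster 4 but not in clusters 5 and 7. With a term for Xist the genotype difference of Robo1 in cluster 4 was -0.60 ± 0.19 (edgeR adjusted p = 0.101, the lowest of 13 alternatives), against -0.21 ± 0.29 without it. Xist status and any other difference between these pairs of knockout libraries cannot be told apart.

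The deposited cell cycle angle of each nucleus allowed cluster 4 to be divided into ranges that the tricycle method assigns to S, G2/M and G1/G0. In wildtype the mean of Robo1 was 627 ± 116 CPM in G1/G0, 547 ± 72.8 in S and 341 ± 50.3 in G2/M. Robo2 had the same order of means, with 969 ± 251, 882 ± 133 and 531 ± 107 CPM. Slit2 was at 598 ± 47.1 CPM in G1/G0, above 378 ± 85.1 in S and 345 ± 47.4 in G2/M. These levels were not tested between ranges, and G1/G0 held 67 to 259 wildtype nuclei per sample.

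**Figure D3:**
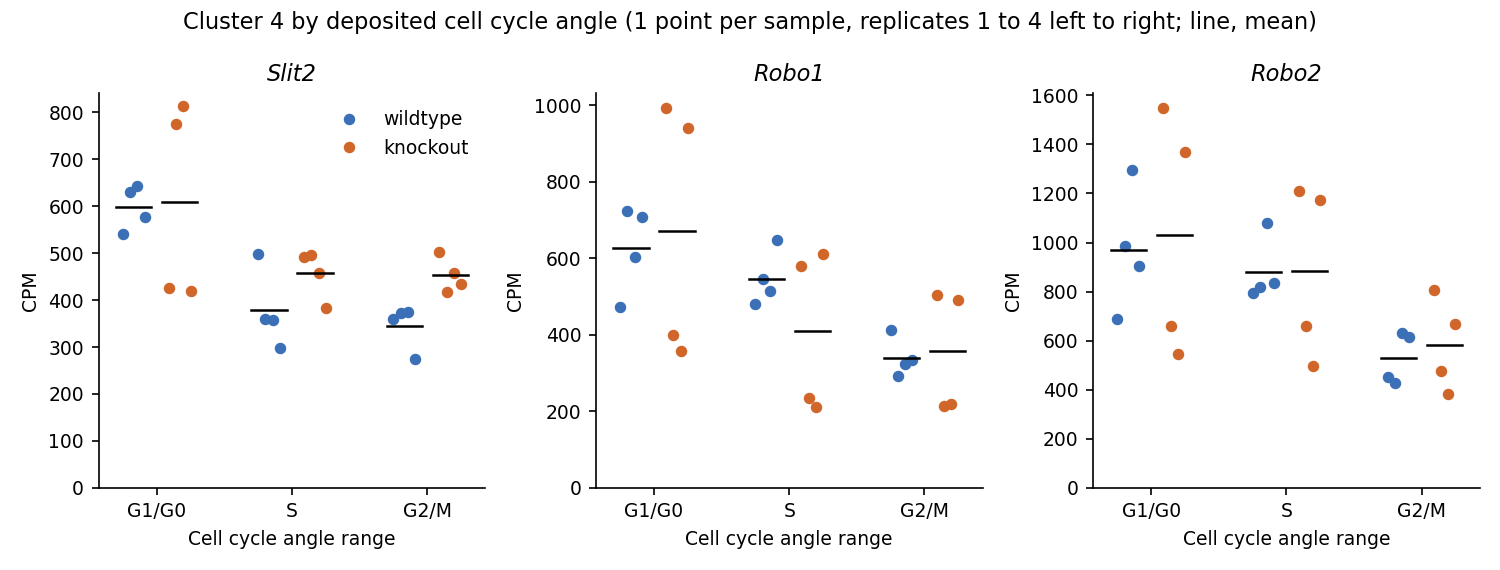
Level of Slit2, Robo1 and Robo2 (CPM) in cluster 4 by range of the deposited cell cycle angle, with 1 point per sample (replicates 1 to 4 from left to right) and a line at the mean of 4. In G1/G0, knockout samples 1 and 4 were at 992 and 940 CPM of Robo1 and samples 2 and 3 at 400.1 and 357 CPM, and for Slit2 the order was the opposite, at 426 and 419 against 775 and 813 CPM.

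The split of the knockout libraries held in the 3 named angle ranges for Robo1. In S, samples 1 and 4 were at 580.4 and 611 CPM and samples 2 and 3 at 234 and 212. In G2/M, they were at 506 and 490.4 against 213 and 220.4 CPM. Robo2 split the same way, at 1211 and 1173 against 662 and 497 CPM in S. It was at 808 and 669 against 475 and 381 CPM in G2/M and at 1549 and 1371 against 660 and 544 in G1/G0. Outside the named ranges Robo2 did not split, at 1377 and 1147 against 979 and 1440 CPM. Slit3 split like Robo1 at lower levels, for example at 120 and 77.7 against 18.7 and 38.6 CPM in G2/M. Slit2 split the other way in G1/G0, where samples 1 and 4 had 177 and 100 nuclei and samples 2 and 3 had 154 and 78. It did so too in the nuclei outside the 3 named ranges (51 to 98 per knockout sample), at 447 and 409 against 548 and 505 CPM. Slit2 did not split in S, at 491 and 384 against 497 and 458 CPM, or in G2/M, at 503 and 433 against 417 and 457 CPM. In G2/M, all 4 knockout samples had more Slit2 (417 to 503 CPM) than every wildtype sample (275 to 374), a difference that was not tested.

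Clusters 3 and 5 also had 0 members past the threshold in edgeR and in DESeq2, where 3.36% of 11890 genes (1.48% higher and 1.88% lower) and 1.77% of 10595 genes (0.868% higher and 0.906% lower) passed in edgeR. In cluster 3, 1 member had an unadjusted p under 0.05, which was Slit3 with 0.27 ± 0.12 (adjusted p = 0.289). Slit1, at its wildtype peak, was at 225 ± 20.3 CPM in wildtype and 227 ± 23.7 in knockout cluster 3, with a log2 difference of 0.01 ± 0.08. Robo2 in cluster 3 differed by -0.38 ± 0.23, with an adjusted p of 0.474 by edgeR and 0.043 without knockout sample 1, where the difference was -0.69. It was -0.30 without knockout sample 2, -0.20 without knockout sample 3 and -0.27 without wildtype sample 1. With the block, Slit3 (0.27 ± 0.07, adjusted p = 0.0399) and Robo2 (-0.44 ± 0.10, adjusted p = 0.0281) passed in cluster 3, where the adjusted p over the alternatives reached 0.556 and 0.825. In cluster 5, none of the 5 had an unadjusted p under 0.05. Robo2 there, its second highest level, was at 3519 ± 265 CPM in wildtype and 3549 ± 306 in knockout, a difference of 0.01 ± 0.08.

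Over all nuclei, with the clusters mixed in their own proportions, none of the 5 genes passed in edgeR, where 5.26% of 13927 genes did (1.67% higher and 3.58% lower), and 1, Robo1, had an unadjusted p under 0.05. Robo1 was at 2087, 1981, 2076 and 1906 CPM in wildtype and at 1546, 1284, 1556 and 1895 CPM in knockout, with knockout sample 4 just below the lowest wildtype sample. Its log2 difference was -0.36 ± 0.10, with an adjusted p of 0.0808 by edgeR, 0.0222 by DESeq2, which called it alone, 0.0433 with the block and 0.0107 without knockout sample 4, and it ranged from 0.0107 to 0.204 over 13 alternatives. Slit3 was at 488 ± 112 CPM in wildtype and 488 ± 53.7 in knockout over all nuclei. The part of cluster sizes, such as the smaller share of cluster 6 in the knockout, in the levels over all nuclei was not tested.

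Receptor pairs were also counted per nucleus after thinning to 1400 UMIs. In wildtype cluster 1, 71.7% ± 1.53 of nuclei had UMIs of both Robo1 and Robo2 and 2.32% ± 0.363 had neither. In cluster 5, Robo2 alone was the most frequent state (49.1% ± 2.65), and in cluster 7 Robo1 alone was (51.6% ± 2.26). In wildtype cluster 4, 49.8% ± 3.93 of nuclei had a UMI of neither.

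**Figure D4:**
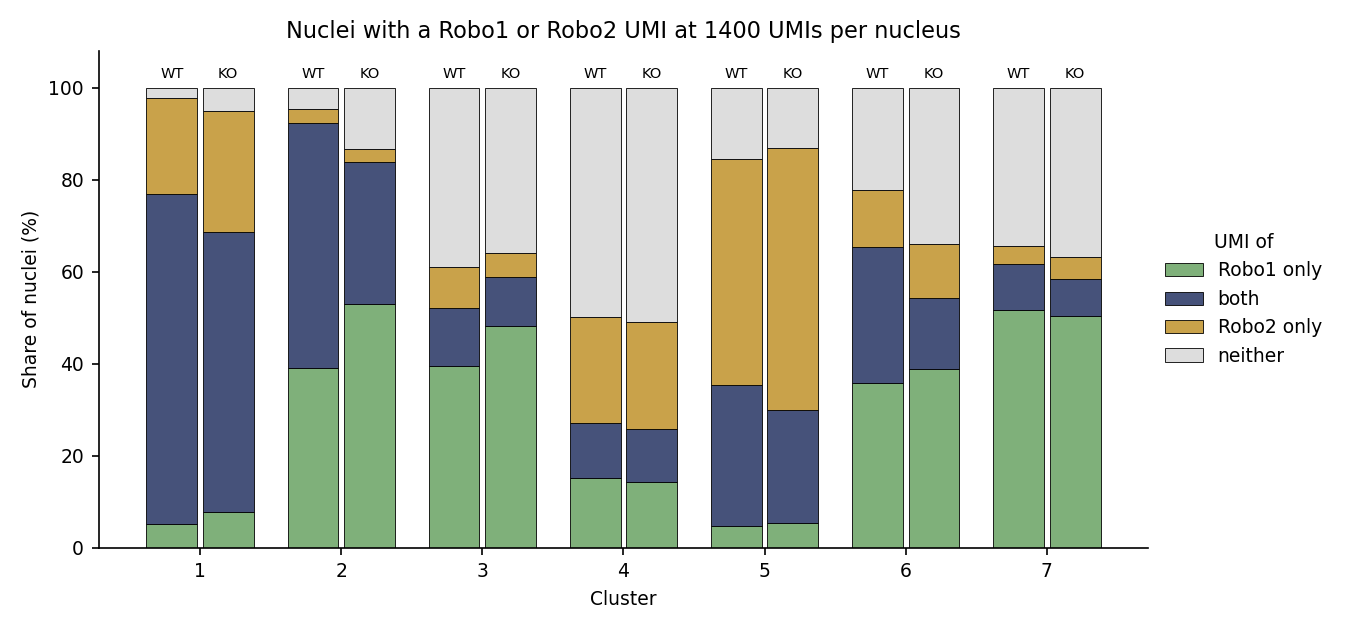
Mean share of nuclei (%) with a UMI of Robo1 only, both, Robo2 only or neither, at 1400 UMIs per nucleus, by cluster, for wildtype (WT) and knockout (KO), 4 samples each. In cluster 2 the share with both was 53.1% in wildtype and 30.8% in knockout, and the share with neither 4.64% and 13.3%.

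In cluster 2, nuclei with both receptors made up 59.2%, 51.0%, 47.1% and 55.2% of wildtype samples 1 to 4 and 32.1%, 30.0%, 26.3% and 34.8% of knockout samples, without overlap. Nuclei with Robo1 alone were 39.1% ± 4.87 in wildtype and 53.0% ± 2.66 in knockout. Nuclei with Robo2 alone stayed few, at 3.15% ± 0.690 and 2.89% ± 0.995. The share with any Robo2 UMI was 56.3% ± 5.75 in wildtype and 33.7% ± 3.90 in knockout (66.0% and 42.4% unthinned, at median depths of 2907 and 2673 UMIs). In wildtype cluster 7, where the level was lowest, the share with a Robo2 UMI was 13.99% ± 3.01, at a median depth of 3128 UMIs. Nuclei with any Slit UMI were 28.4% ± 2.51 of wildtype and 39.8% ± 1.98 of knockout cluster 2, and those with a Slit and a Robo UMI 26.0% ± 1.83 and 32.4% ± 1.26. These shares repeat the counts of the level comparison and were not tested.

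In clusters 1 and 6 the share with both receptors was also lower in the knockout, without overlap of the samples. Its ranges overlapped in clusters 3, 4, 5 and 7. In cluster 6 the share with neither receptor was 19.3% to 27.1% in wildtype and 31.7% to 35.96% in knockout samples, again without overlap. These shares were not tested either. Nuclei with both receptors were 71.7% ± 1.53 and 60.9% ± 4.80 in cluster 1 and 29.5% ± 5.40 and 15.4% ± 4.04 in cluster 6. In cluster 4 they were 11.96% ± 1.93 in wildtype and 11.4% ± 7.03 in knockout, where knockout samples ranged from 4.70% to 17.7%. A Slit and a Robo UMI occurred in the same nucleus in 57.7% ± 2.97 of wildtype cluster 7 and 57.5% ± 4.69 of wildtype cluster 6 nuclei, the highest shares of the 7 clusters.

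The other genes of the pathway were read from a list of 40 ligands, co-receptors, heparan sulfate enzymes, trafficking genes and intracellular effectors, of which Robo4 and Flrt3 were not analysed here. Over all nuclei 38 were tested, 1 was higher and 1 lower in the knockout by edgeR, where 1.67% and 3.58% of all genes were, a share near that of all genes. Their median log2 difference was 0.03, against 0.00 over all genes. The higher gene was Dcc, a netrin receptor that binds Robo1, with 3493 ± 143 CPM in wildtype and 4846 ± 271 in knockout (0.47 ± 0.07, edgeR adjusted p = 0.00456). The lower gene was Cables1, listed among the intracellular effectors, which fell by 0.27 ± 0.06 (edgeR adjusted p = 0.0389). Robo3, the receptor of commissural axons, averaged under 1 CPM in both groups and did not pass.

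In cluster 2, 2 pathway genes were higher and 3 lower of 37 tested, where 3.92% and 5.19% of all genes were, with a median log2 difference of -0.01 against 0.00 over all genes. Dcc was at 3009, 3907, 3246 and 3188 CPM in wildtype and at 6255, 6597, 6265 and 4501 CPM in knockout cluster 2, and the groups did not overlap. Dcc rose by 0.82 ± 0.12 there (edgeR adjusted p = 0.000544). Srgap3, a GTPase-activating protein recruited by Robo, rose by 0.34 ± 0.07 (adjusted p = 0.00847 by edgeR). Nell2, a secreted Robo3 ligand, fell by 0.39 ± 0.07 (edgeR adjusted p = 0.00284). Ext1, which polymerises heparan sulfate, fell by 0.26 ± 0.06 (edgeR adjusted p = 0.015). Nrp1, a semaphorin receptor, was lower by edgeR (-0.79 ± 0.20, adjusted p = 0.0239) but not by DESeq2 (adjusted p = 0.0573), and its samples overlapped.

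**Figure D5:**
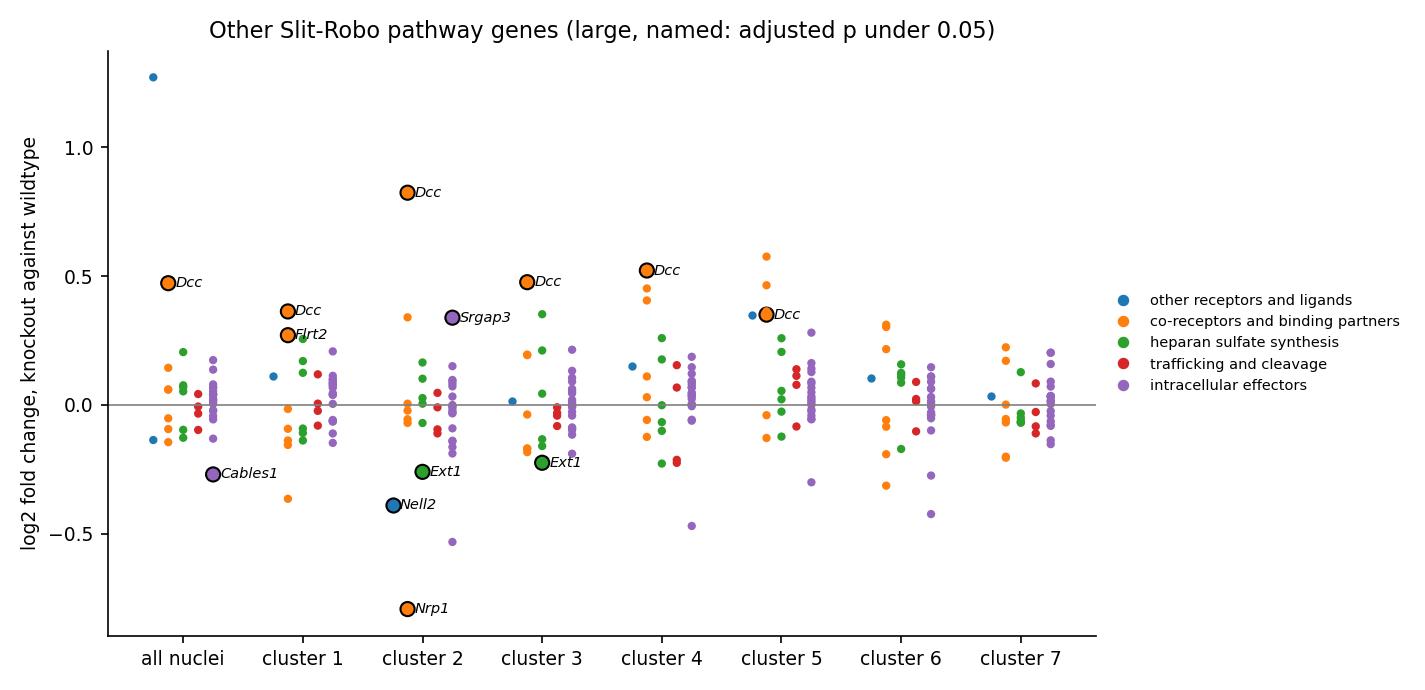
Log2 fold change of knockout against wildtype for the other pathway genes that were tested, by cluster and coloured by role, with named large points for an adjusted p under 0.05 (edgeR, 4 samples per group). Dcc is above 0 in every column, from 0.22 in cluster 6 to 0.82 in cluster 2, and passed over all nuclei and in clusters 1 to 5.

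In the other clusters the calls by edgeR were 2 of 37 in clusters 1 and 3, 1 of 37 in cluster 4, 1 of 36 in cluster 5 and 0 of 37 in clusters 6 and 7. The shares of all genes called there were 4.84%, 3.36%, 4.29%, 1.77%, 0.779% and 1.03% for clusters 1, 3, 4, 5, 6 and 7. In cluster 1, 2 were higher, Dcc (0.36 ± 0.08, adjusted p = 0.0143) and the adhesion protein gene Flrt2 (0.27 ± 0.05, adjusted p = 0.00854), and none was lower. In cluster 3, Dcc was higher (0.48 ± 0.09, adjusted p = 0.0106) and Ext1 lower (-0.22 ± 0.05, adjusted p = 0.0347). Dcc was the single call in cluster 4 (0.52 ± 0.11, adjusted p = 0.0176) and in cluster 5 (0.35 ± 0.08, adjusted p = 0.0489, and 0.0505 with the replicate block). In clusters 6 and 7, 0 of 37 passed in edgeR and in DESeq2, and 1 and 3 had an unadjusted p under 0.05. With the replicate block the adjusted p by edgeR also passed for Srgap3 over all nuclei (0.0457) and in cluster 1 (0.0211), the heparan sulfate enzyme gene Hs6st2 in cluster 3 (0.0419), Nell2 (0.0441) and Nrp1 (0.0239) in cluster 5 and Dcc in cluster 7 (0.023). Of the most abundant gene of each role, Ndfip1, an adaptor of ubiquitin ligases that lowers Robo1 protein, did not pass in any comparison, with 347 ± 62.6 CPM in wildtype and 325 ± 49.9 in knockout over all nuclei.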

How the data were processed

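Nuclear RNA was counted with the 10x 3′ version 2 chemistry, per the labels' protocols. The submitters' processing notes name kallisto, bustools and mm10, with no versions or roles. The values are UMI counts per gene and nucleus, whole numbers that the authors deposited, with their cluster numbers. The deposited doublet score is a score with no fixed unit, at most 0.5 in every nucleus, so no doublet caller was run. The cell cycle angle is another deposited value, and 1 library date is given within each sample. Whether the samples share that date was not checked. Deposited totals exceed the matrix sums by 0.653% to 0.958% per sample. The genes Pantr2 and Pou3f3 and 1 upper-layer marker are not reported here, so the targeted gene was not checked. The deposited gene positions differ from those of GENCODE M21, whose GRCm38 positions are printed.

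UMIs were summed per sample and cluster (at least 50 nuclei each) and tested with edgeR 4.0.16 in R 4.3.3 (TMM, filterByExpr, glmQLFTest), with no covariate beside genotype. The Benjamini-Hochberg adjustment ran over every gene tested, with a threshold of 0.05. Differences between clusters were tested with limma 3.58.1 (prior count 2). DESeq2 1.42.0, other scalings and filters, a replicate block, a term for Xist (over 10 UMIs or not) and leaving out each sample were alternatives. Scripts were tested on simulated data. The replicate numbers of the labels were taken to pair the samples in the replicate block only, and the main tests were unpaired. The labels do not say that the numbers mark pairs. The pairing was taken since deviations from the group means correlated by 0.397, 0.185, 0.192 and 0.18 for numbers 1 to 4, all above 0.1. Unlike numbers correlated by -0.355 to 0.287, with 3 of 12 such pairs above 0.1, so this check of the pairing is weak. The members and lists were chosen with earlier results of these data known. Named pathway genes are those called and the most abundant of each role. Genes of like pattern needed a mean of 10 CPM.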

Additional observations from a re-analysis of the deposited data

Results flagged for a closer look

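The sample spread of each gene was examined in 80 groups of 4 samples, and in 4 of them 1 sample stood far from the other 3, at a rate that chance gives in about 1 of 20 groups. Knockout sample 2 was lowest for Robo1 in cluster 1, at 1691 CPM. Knockout sample 1 was highest for Slit2 in cluster 3, at 47.6 CPM, and for Slit3 in cluster 5, at 212 CPM. Knockout sample 4 was lowest for Slit3 in cluster 6, at 1024 CPM. None of these genes was called in the cluster concerned.

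The genotype difference of 3 genes differed between a cluster and the mean of the other 6, of 35 such tests with limma. These were Robo2 in cluster 2 (-0.82 on the log2 scale), Slit3 in cluster 1 (1.02) and Slit2 in cluster 1 (-0.30).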

How the results depend on the processing

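The calls in cluster 2 (4 of 5 genes) and of Slit3 in cluster 1 held under DESeq2, other size factors, no filter, the replicate block, the Xist term and each sample left out. On the sum of clusters 1 and 2, where most Robo2 molecules were from cluster 1, Robo2 was not called and Slit2 was at -0.11. With the replicate block, which uses the pairing of the labels' numbers, 1 member was called over all nuclei, 2 each in clusters 1, 3 and 6, and 1 each in clusters 4 and 7. Genotype differences that differed from the other clusters then numbered 2, 1 and 2 in clusters 2, 6 and 7. The block changed no other call of a member. DESeq2 called 1 member over all nuclei and 1 each in clusters 6 and 7, where it called 1215 of 13927, 115 of 10522 and 118 of 10548 genes. The Xist term called 1 each in clusters 4, 6 and 7, where 644 of 11935, 99 of 10522 and 126 of 10548 genes were called. It gave 1 difference from the other clusters in each of clusters 3, 4, 6 and 7. The shares of all genes in the alternatives of the limma tests are not given here. With 1 sample left out, 0 to 1 were called over all nuclei and in clusters 3, 6 and 7, and 1 to 2 differed from the other clusters in clusters 1 and 2 and 0 to 1 in clusters 3, 5, 6 and 7.

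Among all genes, the numbers called over all nuclei and in clusters 3, 6 and 7 were 732, 400, 82 and 109, and with the block 1344, 652, 253 and 255. In clusters 1 and 4 the block called 800 and 481. DESeq2 called 1215 over all nuclei. With 1 sample left out the lowest number was 263 over all nuclei, 335 in cluster 1 (564 with all samples), 192 in cluster 3 and 51 in cluster 6, each without knockout sample 3, 316 in cluster 4 without wildtype sample 1 (512), 101 in cluster 5 without wildtype sample 4 (188) and 63 in cluster 7 without knockout sample 2. Cluster 6 had 148 without knockout sample 1.

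Signs turned under the Xist term for Slit3 (-0.091) and Robo2 (-0.10) in cluster 4, Slit2 in cluster 6 (0.018) and Slit3 in cluster 7 (0.0093), and the cause was not tested. With 1 sample left out, log2 differences crossed 0 over all nuclei for Slit2 (-0.043 to 0.16) and Slit3 (-0.11 to 0.16). They did so for Slit1 in cluster 1 (-0.040 to 0.28), Slit1 (-0.052 to 0.059) and Slit2 (-0.23 to 0.079) in cluster 3, and Slit1 (-0.18 to 0.058), Slit3 (-0.27 to 0.43) and Robo2 (-0.068 to 0.31) in cluster 4. They also did for Slit3 (-0.029 to 0.74) and Robo2 (-0.025 to 0.071) in cluster 5 and Slit2 in cluster 6 (-0.086 to 0.12). In cluster 7 the ranges were -0.031 to 0.28 for Slit2, -0.076 to 0.032 for Slit3, -0.29 to 0.0051 for Robo1 and -0.29 to 0.23 for Robo2. None of these was called with all samples.

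Without thinning, the wildtype share of nuclei with a UMI was 45.8% and 3.19% for Slit1 in clusters 3 and 1, 56.8% and 4.10% for Slit2 in clusters 6 and 2, 94.4% and 6.50% for Slit3 in clusters 7 and 4, 96.9% and 40.7% for Robo1 in clusters 2 and 4, and 94.6% and 21.8% for Robo2 in clusters 1 and 7, each higher than at 1400 UMIs. Such shares therefore depend on depth.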
